A study of Homo sapiens with 60 samples.

Results

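HepG2 cells, an established human hepatocellular carcinoma line, were given a water extract of Bupleuri Radix (the dried root of Bupleurum) or of Aconiti Lateralis Radix Preparata (processed lateral root of aconite), both at 500 µg/mL for 24 h. The 6 messenger RNA libraries, 3 for each extract, were chosen by their treatment labels out of 60 in the series, with no use of measured values. Both extracts carry the same number set in their sample titles, and the same set also holds both extracts at 100 and 20 µg/mL, again with 3 libraries a dose. Vehicle libraries (0.1% DMSO for 24 h by their labels, 3 libraries) belong to another title set. The series description gives the vehicle as 2% DMSO and names a wortmannin control, which was not analysed here. No genotype or other agent differed between the groups. HepG2 is 1 tumour line in culture without the other cells of liver, so the values describe that line. The labels leave unsaid whether the 3 libraries of a group are separate cultures. If they are not, the p-values reflect technical spread alone.

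Hepatocytes make most proteins of blood plasma, including fibrinogen and haptoglobin, and they clear foreign compounds with enzymes under the control of sensor proteins. The aryl hydrocarbon receptor (AhR) binds flat aromatic compounds and switches on cytochromes P450 of family CYP1, NRF2 is released by electrophiles and oxidants and switches on glutathione and quinone enzymes, and ATF4 is made when amino acids are short or stress kinases are active. Insulin, acting through FOXO1, lowers IGFBP1, and BMP-SMAD signalling raises hepcidin, the hormone that lowers iron export. Gene lists for these programmes were read under the 2 extracts at the same dose.

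Library totals at 500 µg/mL ran from 23124815 to 28530173 counts, within the series range of 17598608 to 30451591. Replicate libraries of a group correlated at r = 0.991 to 0.993 over log2 CPM (counts scaled to library size). In a principal component analysis of the 18 libraries of the title set, the first component (24.2% of variance) placed the Aconiti 500 libraries at -36.9 to -37.6 and the Bupleuri 500 libraries at -6.56 to -7.59. Mitochondrial ribosomal RNA took 12.4 to 12.8% of counts under Aconiti 500 and 4.09 to 4.50% under Bupleuri 500. CPM values here are relative to the scaled library size, with scaling factors of 0.898 to 0.907 for Aconiti and 0.985 to 0.997 for Bupleuri. Aconiti replicate 3 stood apart in small structural RNAs. RN7SL1, the RNA of the signal recognition particle, had 13.6, 8.98 and 9.39 CPM under Bupleuri and 13.1, 9.78 and 50.8 CPM under Aconiti, and RMRP, the RNA of an RNA-processing complex, had 0.722, 0.372 and 0.107 against 0.544, 0.334 and 5.88 CPM. Both were called higher in Aconiti with all libraries (log2 difference 1.20, edgeR adjusted p = 0.00435, and 2.51, adjusted p = 0.00421). Without that library neither was called. The log2 fold changes of Bupleuri over Aconiti were then -0.12 (edgeR adjusted p = 0.826) and -0.20 (adjusted p = 0.899), smaller but still towards Aconiti. Both belong to a list of structural, nuclear and histone RNAs read as signs of RNA quality. Of its 11 tested members 5 were higher in Aconiti and 0 in Bupleuri, 45.5% called beside 23.5% of all genes tested. Without Aconiti replicate 3 the 5 became 1, and without Bupleuri replicate 2 or 3 they became 3 or 2.

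Of 16093 genes tested, 3777 (23.5%) were called different between the extracts at 500 µg/mL (edgeR quasi-likelihood test, Benjamini-Hochberg adjusted p under 0.05 over all genes tested). In Bupleuri 1802 genes were higher (11.2%), and in Aconiti 1975 were higher (12.3%). The typical difference was small, with a median absolute log2 difference of 0.28 among called genes and 0.14 among all genes tested. At least 2-fold differences were called for 96 genes higher in Bupleuri (0.597%) and for 129 higher in Aconiti (0.802%). The libraries of the 2 groups did not overlap for 5651 genes (35.1%), and 3558 of the called genes were among them. In bulk RNA, fewer cells that make a transcript and less of it per cell cannot be told apart. The plot of log2 difference against level shows how the called genes lie over the range of expression.

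**Figure D1:**
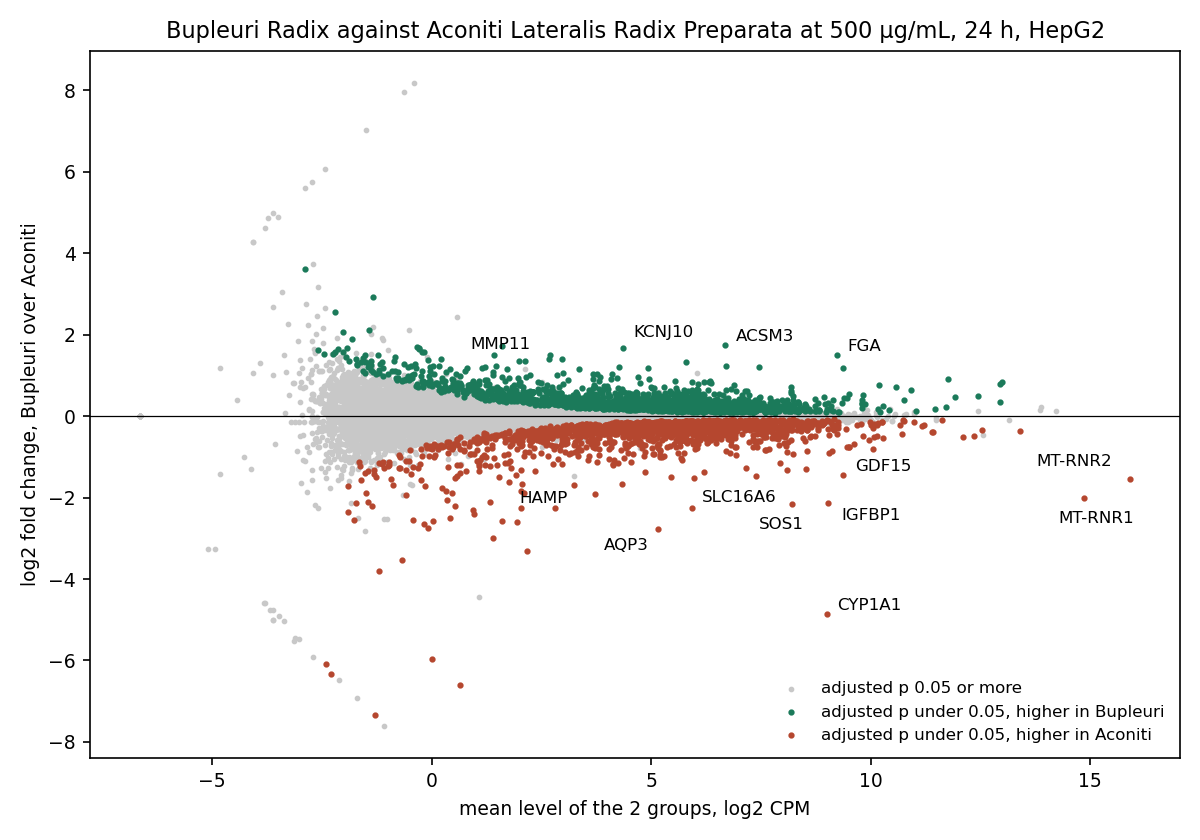
Each point is 1 of 16093 genes. The x axis gives the log2 of the mean CPM of the 6 libraries. On the y axis is the log2 fold change of Bupleuri over Aconiti at 500 µg/mL. Green points are the 1802 genes called higher in Bupleuri, red points the 1975 called higher in Aconiti and grey points genes that were not called, and CYP1A1 lies at -4.86.

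The differences of largest size lay on the Aconiti side. CYP1A1, the monooxygenase that best reports AhR activity, had 35.7, 33.4 and 32.8 CPM under Bupleuri and 972, 990 and 1004 CPM under Aconiti (chr15:74719542-74725610, minus strand). The groups were far apart, and CYP1A1 was 29.1-fold higher in Aconiti (log2 4.86 ± 0.10 SE, n = 3 a group, edgeR adjusted p = 3.91e-37). AQP3, a channel for water and glycerol (chr9:33441154-33447633, minus strand), stood at 7.99, 9.97 and 9.21 against 60.4, 63.3 and 62.7 CPM, 6.84-fold higher in Aconiti (log2 2.77 ± 0.064, edgeR adjusted p = 1.58e-35). No AQP3 library of one group came near the other group. SLC16A6, a member of the monocarboxylate transporter family (chr17:68267026-68291267, minus strand), had 22.5, 19.99 and 20.2 against 102, 103 and 95.96 CPM and was 4.82-fold higher in Aconiti. SOS1, the exchange factor that activates RAS below growth factor receptors (chr2:38981396-39124345, minus strand), had 114, 113 and 98.05 against 479.9, 500.3 and 471 CPM, a 4.48-fold difference. In both genes the Bupleuri libraries stood close together far below the Aconiti libraries.

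The other protein-coding genes among the 15 with the largest difference towards Aconiti were IGFBP1, HAMP, RBM24, RGMB, LGALS3, S100P, SLC7A11, GDF15, ASNS, GPAT3 and VLDLR. RGMB, a co-receptor for BMP ligands, had 8.88, 10.1 and 10.1 CPM under Bupleuri and 33.5, 29.8 and 29.2 CPM under Aconiti. RBM24, an RNA-binding protein that regulates splicing, had 3.99, 4.68 and 4.803 against 16.1, 13.3 and 13.9 CPM. LGALS3, the sugar-binding protein galectin-3, had 31.99, 31.9 and 33.8 against 93.7, 92.1 and 94.9 CPM, and S100P, a calcium-binding protein, had 22.8, 20.4 and 25.01 against 61.2, 71.2 and 60.1 CPM. For these 4 genes all Aconiti libraries lay well above all Bupleuri libraries, with folds of 3.17, 3.21, 2.87 and 2.81. GPAT3, an enzyme of glycerolipid synthesis, had 16.2, 16.7 and 16.01 against 42.5, 41.5 and 42.3 CPM, and VLDLR, a receptor for triglyceride-rich lipoproteins, had 2.51, 2.77 and 3.27 against 7.42, 7.39 and 7.15 CPM. Both were again separated without overlap, at 2.58- and 2.56-fold.

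On the Bupleuri side the largest difference was that of ACSM3, a mitochondrial medium-chain acyl-CoA synthetase (chr16:20610243-20797581, plus strand), with 159, 159.5 and 156 CPM under Bupleuri and 50.1, 44.2 and 47.1 CPM under Aconiti. It was 3.35-fold higher in Bupleuri (log2 1.75 ± 0.045, edgeR adjusted p = 1.58e-33), with tight libraries in both groups. KCNJ10, an inwardly rectifying potassium channel, had 30.1, 32.3 and 30.99 against 9.64, 10.5 and 9.06 CPM, and MMP11, a matrix metalloproteinase, had 8.16, 9.48 and 10.8 against 3.54, 3.48 and 3.05 CPM. They were 3.203- and 2.83-fold higher in Bupleuri, with no overlap of libraries. SGK1, a kinase induced by glucocorticoids and serum, had 76.01, 78.2 and 82.3 against 32.5, 31.9 and 29.6 CPM. TNFSF10, the death ligand TRAIL, had 13.9, 14.5 and 13.98 against 6.296, 5.87 and 6.83 CPM, and the amino acid transporter SLC6A14 had 39.8, 46.1 and 40.4 against 17.9, 19.4 and 18.4 CPM. These 3 genes were 2.52-, 2.23- and 2.27-fold higher in Bupleuri, each without overlap. SCN1A, a sodium channel subunit, and ARSI, a sulfatase, were 2.31- and 2.04-fold higher in Bupleuri. The remaining 7 of the 15 genes were FGA, FGB, FGG, HP, HPR, HPX and ACSM2B, which are described with their groups. The plot of the 30 genes by library shows the separation of the groups that their choice required.

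**Figure D2:**
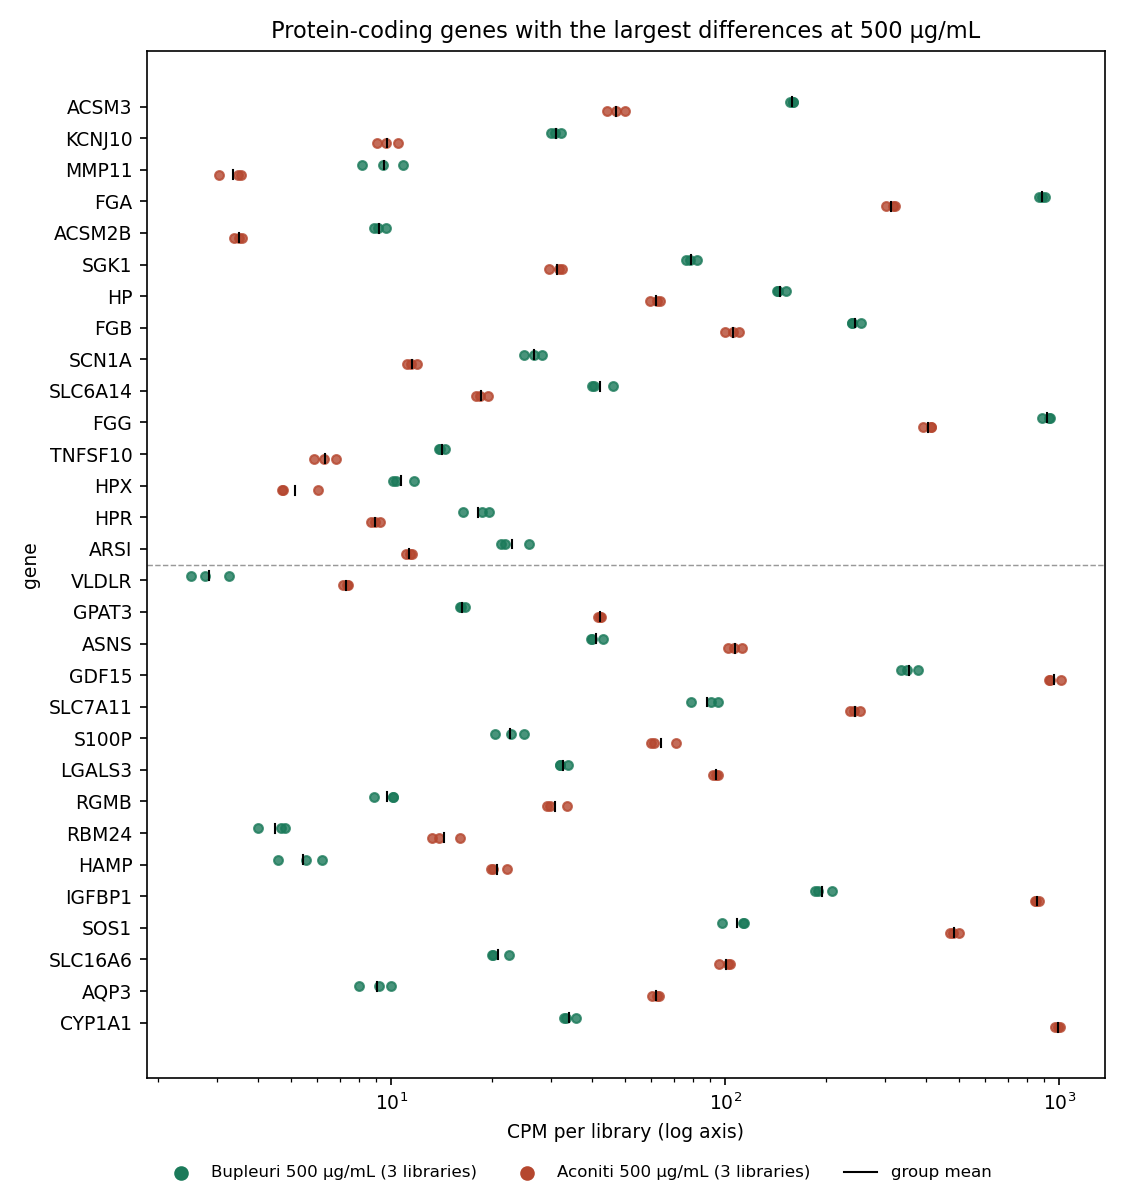
CPM in each of the 6 libraries at 500 µg/mL (log axis) for the 15 protein-coding genes with the largest called difference in each direction, among genes with a mean CPM of 5 or more and no overlap between groups. Genes above the dashed line were higher in Bupleuri (green) and genes below it higher in Aconiti (red), with bars at the group means, and CYP1A1 shows the widest gap at 34.00 against 989 CPM.

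Targets of AhR stood higher in Aconiti. Of 8 listed targets 6 were tested, and 5 of them were higher in Aconiti and 0 in Bupleuri. The median log2 difference was 2.72 towards Aconiti, beside 0.0016 towards Bupleuri for all genes tested. Of all genes tested 11.2% were higher in Bupleuri and 12.3% in Aconiti, and list counts here and below stand beside those shares. CYP1A2, the second CYP1 enzyme of liver, had 0, 0 and 0.0712 CPM under Bupleuri and 2.02, 1.72 and 2.14 CPM under Aconiti, so that it was at or next to 0 in the first group. The Bupleuri libraries could not have carried CYP1A2 past the count filter. Its place among the 5 and in the median therefore rests on libraries of other groups, such as Aconiti. AHRR, the repressor that AhR itself induces, had 0.807, 0.786 and 0.854 against 8.08, 8.49 and 8.06 CPM, 9.99-fold higher in Aconiti (log2 3.32 ± 0.20, edgeR adjusted p = 1.29e-18). ALDH3A1, an aldehyde dehydrogenase, had 0.807, 1.03 and 0.961 against 3.89, 4.01 and 4.33 CPM and was 4.33-fold higher. NQO1, a quinone reductase that NRF2 controls as well, had 779, 761 and 772 against 1350, 1416 and 1312 CPM. TIPARP, an AhR-induced ADP-ribosyltransferase, was not called, with 21.5, 20.9 and 19.99 against 23.3, 24.2 and 21.6 CPM (log2 0.15 ± 0.063 towards Aconiti, edgeR adjusted p = 0.0818, and 0.0373 without Aconiti replicate 3 and 0.0381 with GC content corrected). CYP1B1 and UGT1A6 were below the count filter, at no more than 0.505 and 0.41 CPM in any of the 6 libraries.

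The dioxin response element that AhR binds has the core letters GCGTG. Promoters were taken from RefSeq (GRCh38.p14) as the 250 bases before a gene's start and searched on both strands. They were found for 5 of the 6 tested AhR targets, and 3 of these held the core, beside 31.9% of 27305 promoters and 44.6% of those of tested genes. Stretches are printed here and below only for genes that differed and whose promoter holds the motif of their list. Among such genes CYP1A1 is shown because it had the widest difference among the 30 genes above. It lies at chr15:74725568-74725597 on the minus strand, at -69 to -40 from the RefSeq start, and a GENCODE release 29 exon covers it. Capitals mark the core.

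CYP1A1: ccagggaaggagGCGTGgccacacgtacaa

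NRF2 targets were also higher in Aconiti, with smaller folds. Of 24 tested members 22 were higher in Aconiti and 0 in Bupleuri, with a median log2 difference of 0.44 towards Aconiti. GCLM, the regulatory subunit of the enzyme that limits glutathione synthesis (chr1:93885205-93909456, minus strand), had 80.8, 77.2 and 75.1 CPM under Bupleuri and 143, 148 and 144 CPM under Aconiti. Every Aconiti library was above every Bupleuri library, and GCLM was 1.87-fold higher (log2 0.90 ± 0.042, edgeR adjusted p = 7.84e-23). Its catalytic partner GCLC had 138, 139.8 and 136 against 256, 238 and 242 CPM. SLC7A11, the cystine importer that feeds glutathione synthesis and that ATF4 also controls, had 95.1, 90.5 and 78.95 against 243, 253 and 237 CPM and was 2.77-fold higher. The groups were again fully separated for both. TXNRD1 (thioredoxin reductase) and SRXN1 (sulfiredoxin) were 1.81- and 1.79-fold higher, and AKR1B10, an aldo-keto reductase, was 1.85-fold higher. HMOX1, which breaks down haem, had 55.7, 51.7 and 58.2 against 83.4, 78.5 and 87.6 CPM. The conjugate exporters ABCC2 and ABCC3, counted in this list, were 1.69- and 1.703-fold higher in Aconiti. Enzymes of the NADPH-making pentose phosphate pathway were higher by less, with PGD at 1.25-fold and TKT at 1.22-fold. PRDX1 (log2 0.01 towards Aconiti, edgeR adjusted p = 0.954) and AKR1C3 (0.18, adjusted p = 0.167) were not called. AKR1C3 was called with no filter on low counts (adjusted p = 0.0116) and with only the libraries compared (0.039). AKR1C1 and AKR1C2 are near-identical copies whose reads RSEM divides by estimate, as are HP and HPR, ACSM2A and ACSM2B, GSTA1 and GSTA2, the metallothioneins and C4A and C4B, so their separate values are uncertain.

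The core of the antioxidant response element that NRF2 binds was searched as TGACNNNGC. It was present in 3 of 16 NRF2 target promoters in RefSeq, beside 11% of all and 12.3% of those of tested genes. The GCLM stretch lies at chr1:93909445-93909474 on the minus strand, -44 to -15 from the RefSeq start and under a GENCODE exon. It is shown because GCLM differed between the extracts and its promoter holds the core. Capitals mark the match, which reads on the opposite strand.

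GCLM: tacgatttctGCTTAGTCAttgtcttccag

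Genes of the amino acid response under ATF4 were higher in Aconiti. Of 28 tested members 27 were higher in Aconiti and 0 in Bupleuri, with a median log2 difference of 0.54. ASNS, which makes asparagine (chr7:97852118-97872542, minus strand), had 43.1, 39.98 and 39.7 CPM under Bupleuri and 106, 112 and 102 CPM under Aconiti. It was 2.61-fold higher in Aconiti (log2 1.38 ± 0.055, edgeR adjusted p = 1.58e-25). GDF15, a stress-induced circulating hormone (chr19:18374731-18389176, plus strand), had 350.1, 335 and 378 against 939.5, 932 and 1013 CPM and was 2.71-fold higher. The libraries of both genes were far apart. DDIT4, an inhibitor of mTORC1, had 33.6, 31.6 and 35.7 against 69.6, 74.6 and 68.95 CPM, and STC2, a secreted glycoprotein, had 75.7, 73.8 and 72.9 against 134, 134 and 136 CPM. CTH, which makes cysteine, and the mitochondrial folate enzymes ALDH1L2 and MTHFD2 were 2.17-, 2.25- and 1.697-fold higher in Aconiti. ATF4 mRNA itself was 1.44-fold higher. Among regulators, TRIB3 was 1.59-fold, ATF3 1.83-fold and CEBPB 1.61-fold higher, while DDIT3 (CHOP) differed little, at 9.18, 10.2 and 8.89 against 10.96, 11.6 and 11.6 CPM (edgeR adjusted p = 0.0401, and 0.0982 to 0.144 without Bupleuri replicate 1 or 3 or Aconiti replicate 2 or 3). Of the amino acid transporters, SLC7A5 was 1.503-fold and SLC1A5 1.41-fold higher. The serine enzymes PSAT1 and PHGDH were 1.26- and 1.18-fold higher, and PSPH was the member that was not called (63.8, 62.3 and 61.05 against 63.1, 63.6 and 58.8 CPM, adjusted p = 0.91). CHAC1 and FGF21 were below the filter, at no more than 0.0954 and 0.0455 CPM, as was PDK4 of the fatty acid oxidation list.

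The 12 listed aminoacyl-tRNA synthetases, which load tRNA with amino acids, and the tRNA export factor XPOT were all higher in Aconiti (13 of 13), with a median log2 difference of 0.33. YARS1 was 1.48-fold and GARS1 1.43-fold higher, and MARS1 was 1.35-fold higher. The chaperones of the endoplasmic reticulum did not share this direction. Of 18 members 9 were higher in Bupleuri and 0 in Aconiti, with small folds, such as XBP1, a transcription factor of the unfolded protein response, at 1.26-fold and SDF2L1 at 1.33-fold. HSPA5 (BiP) had 1225, 1226 and 1218 against 1143, 1175 and 1130 CPM (edgeR adjusted p = 0.0309, and 0.0662 to 0.144 without Bupleuri replicate 1, 2 or 3 or Aconiti replicate 1 or 3). Of 12 cytosolic heat shock genes 1 was higher in Bupleuri, 2 in Aconiti and 9 were not called. The share called was 25%, near the 23.5% of all genes tested. Without replicate 1 or 2 of Aconiti or 2 or 3 of Bupleuri the 2 higher in Aconiti became 1.

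The C/EBP-ATF composite element was searched as TGATGNAA. It was found in 2 of 23 RefSeq promoters of the ATF4 list, beside 3.2% of all and 1.5% of those of tested genes. One of the 2 is ASNS, at chr7:97872458-97872487 on the minus strand, -79 to -50 from the RefSeq start and under a GENCODE exon. It is shown because ASNS holds the match and is a textbook readout of the amino acid response, with the match in capitals.

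ASNS: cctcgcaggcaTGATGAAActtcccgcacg

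IGFBP1, a secreted binding protein for insulin-like growth factors that FOXO1 drives (chr7:45888357-45893668, plus strand), had 190, 186 and 209 CPM under Bupleuri and 854, 869 and 846 CPM under Aconiti. It was 4.39-fold higher in Aconiti (log2 2.13 ± 0.090, edgeR adjusted p = 1.33e-24). The FOXO1 and gluconeogenesis genes did not move as 1 group. Of 12 tested, IGFBP1 among them, 4 were higher in Bupleuri, 4 in Aconiti and 4 were not called. The median log2 difference of the 12 was 0.08 towards Aconiti. G6PC1, the glucose-releasing phosphatase, had 4.08, 6.08 and 5.27 against 3.61, 3.29 and 3.14 CPM, and PCK1, the cytosolic carboxykinase of glucose synthesis, had 3.65, 5.01 and 5.34 against 3.38, 3.101 and 3.55 CPM. Both were higher in Bupleuri, by 1.53- and 1.399-fold (edgeR adjusted p = 0.00112 and 0.0025). DEPP1, another FOXO target, was also higher in Bupleuri, with 48.1, 48.96 and 49.5 against 29.3, 29.9 and 29.7 CPM. PCK2, the mitochondrial carboxykinase that ATF4 also controls, was 1.31-fold higher in Aconiti. Of the 9 genes of the glucose-sensing ChREBP and MondoA axis, TXNIP, an arrestin-family protein that restrains glucose uptake, was 1.47-fold higher in Bupleuri. GCKR, the regulator of glucokinase, was 1.95-fold higher in Aconiti.

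Glycolysis and hypoxia genes leaned towards Aconiti without moving as a whole. Of 20 glycolysis genes 7 were higher in Aconiti and 3 in Bupleuri. SLC2A1, the GLUT1 glucose transporter, had 903, 938 and 969.5 CPM under Bupleuri and 1294, 1310 and 1347 CPM under Aconiti, with no overlap. LDHA, which makes lactate, had 1275, 1302 and 1222 against 1322, 1361 and 1297 CPM and was not called (edgeR adjusted p = 0.293). PFKP and ENO2 were 1.77- and 1.58-fold higher in Aconiti, and PFKFB4 was 1.45-fold higher in Bupleuri. Of 20 hypoxia-response genes 9 were higher in Aconiti and 3 in Bupleuri. ADM (adrenomedullin) was 1.78-fold and VEGFA 1.31-fold higher in Aconiti, whereas ANGPTL4, an inhibitor of lipoprotein lipase, had 0.935, 1.37 and 1.39 CPM under Bupleuri and 0.389, 0.286 and 0.501 CPM under Aconiti. The Aconiti libraries could not have carried ANGPTL4 past the count filter, so its test rests on libraries of other groups, such as Bupleuri.

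HAMP, which encodes hepcidin (chr19:35280716-35285143, plus strand), had 4.59, 5.54 and 6.19 CPM under Bupleuri and 20.2, 22.2 and 19.9 CPM under Aconiti. It was 3.78-fold higher in Aconiti (log2 1.92 ± 0.17, edgeR adjusted p = 2.69e-13). The vehicle libraries had 68.5, 66.1 and 63.9 CPM, so both 500 µg/mL groups lay below vehicle, and Bupleuri lay lower. Of 14 tested genes of iron and BMP signalling, 10 were higher in Aconiti, 2 in Bupleuri and 2 were not called. BMP-SMAD targets were among the 10. ID1 had 80.2, 71.8 and 97.9 against 168, 147 and 169 CPM and ID3 25.3, 23.8 and 30.5 against 49.8, 52.1 and 55.1 CPM, 1.93- and 1.96-fold higher in Aconiti. ATOH8, a transcription factor that activates HAMP, had 0.3399, 0.207 and 0.3202 against 1.904, 1.38 and 1.96 CPM, and the feedback inhibitors SMAD6 and SMAD7 were 1.26- and 1.35-fold higher. Libraries of the 2 extracts did not overlap for ID1, ID3 or ATOH8. The Bupleuri libraries could not have carried ATOH8 past the count filter. Its place in the counts of this list therefore rests on libraries of other groups, such as Aconiti. The ferritin chains FTH1 and FTL, which store iron and also answer to NRF2, were 1.31- and 1.29-fold higher in Aconiti. TFRC, the transferrin receptor, was 1.16-fold higher in Aconiti, while TF, transferrin itself, was 1.31-fold higher in Bupleuri. BMP6 and HJV were below the filter.

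Metallothioneins, small cysteine-rich proteins that bind zinc and copper, differed unevenly. MT2A had 147, 145 and 179 CPM under Bupleuri and 395, 402 and 374 CPM under Aconiti (chr16:56608199-56609497, plus strand). It was 2.49-fold higher in Aconiti (log2 1.31 ± 0.12, edgeR adjusted p = 6.13e-12), and the vehicle libraries, at 367, 351 and 438 CPM, lay at the Aconiti level. MT1E had 46.01, 47.8 and 50.98 against 81.1, 87.8 and 79.8 CPM and was 1.71-fold higher. MT1G, MT1X and MT1F were not called with the settings used here, and MT1G was with others. MT1G had 14.8, 13.04 and 17.4 against 19.8, 18.3 and 19.9 CPM (edgeR adjusted p = 0.0993, and 0.049 without Bupleuri replicate 3), MT1X 11.1, 12.5 and 14.7 against 15.7, 14.5 and 13.1 CPM (adjusted p = 0.403) and MT1F 7.61, 6.79 and 7.93 against 7.501, 8.16 and 6.74 CPM (adjusted p = 1). For MT1G the adjusted p was 0.0391 with DESeq2, 3.65e-05 with no filter on low counts, 0.0423 within the title set and 0.0122 with only the libraries compared. Of the 10 tested genes of this list, which also holds zinc transporters and MTF1, 4 were higher in Aconiti and 0 in Bupleuri. Metal response elements were searched in an A form (TGCACNC) and a G form (TGCGCNC). In RefSeq promoters of the 5 matched genes, 3 held the A form and 2 the G form, beside 9.7 and 16.9% of all promoters and 9.5 and 26% of those of tested genes. The MT2A promoter holds 7 matches. The 30 bases at chr16:56608412-56608441 on the plus strand, -172 to -143 from the RefSeq start and under a GENCODE exon, are shown because they carry both forms. The first match in capitals is an A form read on the opposite strand and the second a G form.

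MT2A: gcccGTGTGCAgagccgggTGCGCCCggcc

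Fibrinogen and other acute phase proteins were higher in Bupleuri. Of 14 tested acute phase genes 9 were higher in Bupleuri and 0 in Aconiti, with a median log2 difference of 0.37. The 3 fibrinogen chains lie side by side on chromosome 4. FGA had 872, 904 and 889 CPM under Bupleuri and 318, 323 and 302 CPM under Aconiti, FGB 240, 239 and 254 against 109.8, 106 and 99.9 CPM and FGG 889.7, 928 and 935 against 414, 412 and 390.4 CPM. No library of one group reached the other in any of the 3 genes. FGA was 2.83-fold higher in Bupleuri (edgeR adjusted p = 7.29e-36), FGB 2.32-fold and FGG 2.26-fold. HP, haptoglobin, which binds free haemoglobin, had 143, 142 and 152 against 62.4, 63.6 and 59.7 CPM, and HPX, haemopexin, which binds free haem, had 10.2, 10.3 and 11.7 against 6.02, 4.72 and 4.74 CPM. HP was 2.36-fold, its neighbour HPR 2.04-fold and HPX 2.06-fold higher in Bupleuri. Smaller differences were seen for SERPINA3, an inhibitor of neutrophil and mast cell proteases, at 1.52-fold and ORM1, orosomucoid, at 1.196-fold. The 5 members that were not called were CP, ITIH3, ITIH4, SAA4 and SERPINA1, with log2 differences of 0.02 to 0.49 towards Bupleuri. For SERPINA1 the edgeR adjusted p was 0.0569, and 0.0477 to 0.0479 without Bupleuri replicate 1 or Aconiti replicate 1. SERPINA1 was also called with DESeq2 (0.0489), with GC content corrected (0.034), within the title set (0.0304) and with no filter (0.0172). SAA4 was called with no filter (0.00598) and with only the libraries compared (0.0178). CRP, SAA1 and SAA2 had 0 counts in all 6 libraries.

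The promoters of FGA and FGB are shown because both genes differed, hold both motifs searched below and are read in opposite directions from the same locus. The core of an HNF1 site (GTTAAT) was present in 3 of 10 acute phase promoters in RefSeq, beside 6.2% of all and 3.5% of those of tested genes. A C/EBP site (TTGCNNAA) was present in 4 of 10, beside 9.1 and 6%. Both FGA and FGB hold 1 of each, in the same order, and neither stretch overlaps a GENCODE exon. SAA4 also held both motifs and was not called with the settings used here. FGG, which differed as well, was not among the genes with a match. In each, the first capitals mark the C/EBP match and the second the HNF1 core. The HNF1 core reads on the opposite strand in both, and the C/EBP match reads on the opposite strand in FGA and as printed in FGB. FGA is given on the minus strand from chr4:154590767-154590913 (-171 to -25 from the start) and FGB on the plus strand from chr4:154562849-154562955 (-131 to -25).

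FGA: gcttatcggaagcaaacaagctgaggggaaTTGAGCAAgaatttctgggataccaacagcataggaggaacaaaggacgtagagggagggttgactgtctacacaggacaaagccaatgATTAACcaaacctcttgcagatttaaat

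FGB: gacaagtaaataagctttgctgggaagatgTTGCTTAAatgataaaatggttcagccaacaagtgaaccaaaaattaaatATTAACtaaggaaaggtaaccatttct

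Other plasma protein genes were read as complement, carriers, apolipoproteins and clotting factors. Of 17 complement genes 11 were higher in Bupleuri and 2 in Aconiti. C5, the precursor of the lytic pathway, had 151, 155 and 135 CPM under Bupleuri and 94.6, 98.04 and 93.3 CPM under Aconiti, C8B was 2.02-fold and C8A 1.63-fold higher, and C3 was not called (1737, 1785 and 1810 against 1735, 1676 and 1853 CPM). The exceptions were C8G (1.92-fold higher in Aconiti) and MBL2. Of 9 plasma carriers 6 were higher in Bupleuri and 2 in Aconiti. ALB had 8914, 8629 and 8829 against 6979, 7164 and 6558 CPM and AFP 3559, 3576 and 3707 against 3121, 3169 and 3045 CPM, without overlap and with folds of 1.27 and 1.16. SERPINA7, the thyroxine carrier, was 1.79-fold and SERPINA6, the cortisol carrier, 1.45-fold higher in Bupleuri, while SHBG was 1.35-fold higher in Aconiti. Of 15 apolipoprotein and lipoprotein assembly genes 7 were higher in Bupleuri and 2 in Aconiti. APOA1 had 799, 754 and 876 against 582, 606 and 599 CPM, APOC3 42.5, 36.5 and 45.3 against 26.7, 25.9 and 24.6 CPM and APOA5 was 1.703-fold higher. Of the pair higher in Aconiti MTTP, which loads lipid onto apolipoprotein B, was 1.12-fold higher, and APOB was not called (edgeR adjusted p = 0.497, and 0.0468 with no filter on low counts). Of 17 clotting and fibrinolysis genes 5 were higher in Bupleuri, 2 in Aconiti and 10 were not called. KNG1, kininogen, had 3.36, 2.94 and 3.45 against 1.44, 1.29 and 1.46 CPM.

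The medium-chain acyl-CoA synthetases are mitochondrial enzymes that activate medium-chain and xenobiotic acids. The 5 tested members lie on chromosome 16. Of these, 3 were higher in Bupleuri and 0 in Aconiti. Beside ACSM3, ACSM2B had 8.88, 9.64 and 9.11 CPM under Bupleuri and 3.38, 3.58 and 3.51 CPM under Aconiti, and ACSM2A 4.55, 4.26 and 5.19 against 1.44, 1.19 and 1.59 CPM. They were 2.64- and 3.31-fold higher in Bupleuri, with no overlap. ACSM1 (edgeR adjusted p = 0.17) and ACSM5 (adjusted p = 0.244) were not called, at means of 0.572 and 2.68 CPM under Bupleuri and 0.359 and 2.17 CPM under Aconiti. Lipid synthesis differed little. Of 25 genes of cholesterol synthesis 10 were higher in Bupleuri and 1 in Aconiti, with a median log2 difference of 0.08. HMGCS1 had 299.9, 265 and 254 against 267, 265 and 239 CPM and was not called (edgeR adjusted p = 0.317), whereas MVK was 1.22-fold higher in Bupleuri. For fatty acid synthesis 4 of 14 genes were higher in Bupleuri and 0 in Aconiti, 28.6% called beside 23.5% of all genes tested. FASN had 1510, 1476 and 1492 against 1429, 1450 and 1577 CPM and SCD 1746, 1787 and 1705 against 1760, 1695 and 1723 CPM, neither called (edgeR adjusted p = 0.966 and 0.871), with overlapping libraries. Of 17 genes of fatty acid oxidation 6 were higher in Bupleuri (3 without Bupleuri replicate 2 or without Aconiti replicate 3) and 5 in Aconiti. PLIN2, the coat protein of lipid droplets, had 149, 147 and 156 against 262, 264 and 262 CPM, 1.74-fold higher in Aconiti. CPT1A, the gate of mitochondrial fatty acid entry, was 1.18-fold higher in Aconiti.

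Among transcription factors of hepatocytes, 6 of 14 were higher in Bupleuri and 2 in Aconiti. NR1H4, the bile acid receptor FXR, had 34.4, 34.7 and 33.5 CPM under Bupleuri and 18.7, 17.1 and 16.5 CPM under Aconiti, 1.96-fold higher in Bupleuri without overlap. FOXA1 and ONECUT1 were 1.32- and 1.54-fold higher in Bupleuri, while HNF4A, at 331, 343 and 333 against 394, 379 and 419 CPM, was 1.18-fold higher in Aconiti. Of 12 bile acid genes 5 were higher in Bupleuri and 0 in Aconiti. They include AKR1D1, a reductase of bile acid synthesis, at 1.84-fold, and KLB, the FGF19 co-receptor, at 1.54-fold. CYP7A1, the rate-limiting enzyme, was near the detection limit with 0.3399, 0.497 and 0.249 against 0.0777, 0.143 and 0.4099 CPM and was not called (edgeR adjusted p = 0.219, and 0.0309 without Aconiti replicate 3). The list of drug-metabolising P450s outside the CYP1 family also holds the receptors NR1I2 and NR1I3 and the reductase POR. It gave no common direction, with 2 of 12 tested genes higher in Bupleuri and 4 in Aconiti. CYP3A7 was 1.76-fold higher in Bupleuri and CYP24A1, which inactivates vitamin D, 2.06-fold higher in Aconiti. CYP3A5 had 7.05, 7.74 and 6.47 against 6.18, 6.202 and 6.103 CPM and was not called. Of 12 ABC exporters 6 were higher in Aconiti and 2 in Bupleuri. ABCG2 and ABCB1, drug efflux pumps, were 1.73- and 1.29-fold higher in Aconiti.

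Genes of cell division were higher in Bupleuri than in Aconiti, and the plot of gene lists sets them beside the other groups. Of 25 mitosis genes 24 were higher in Bupleuri and 0 in Aconiti, with a median log2 difference of 0.40. KIF20A, a kinesin of cytokinesis, had 55.7, 59.8 and 57.9 CPM under Bupleuri and 40.1, 39.3 and 37.8 CPM under Aconiti, and CCNA2, cyclin A2, had 135, 137 and 132 against 117, 111 and 108 CPM. TOP2A, which untangles DNA, had 498, 487 and 467 against 364, 380.3 and 342 CPM. Libraries of the groups did not overlap for these 3 genes, with folds of 1.48, 1.21 and 1.34. PTTG1 was not called (edgeR adjusted p = 0.267). Of 25 DNA replication genes 14 were higher in Bupleuri and 0 in Aconiti, with a smaller median of 0.17. MCM2, a subunit of the replicative helicase, had 142, 148 and 152 against 118, 116 and 127 CPM, and MCM3 had 251, 252 and 260 against 237, 244 and 247 CPM and was not called (edgeR adjusted p = 0.0706, and 0.0464 with GC content corrected). With DESeq2 the adjusted p of MCM3 was 0.0392. CDKN1A, the p21 inhibitor of cyclin-dependent kinases, had 114, 117 and 121 against 200.1, 200.2 and 199 CPM, 1.701-fold higher in Aconiti. The p53 targets, CDKN1A among them, were mixed, with 7 of 18 higher in Aconiti and 3 in Bupleuri. MDM2 was 1.17-fold higher in Aconiti, and BAX was not called (adjusted p = 0.819).

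**Figure D3:**
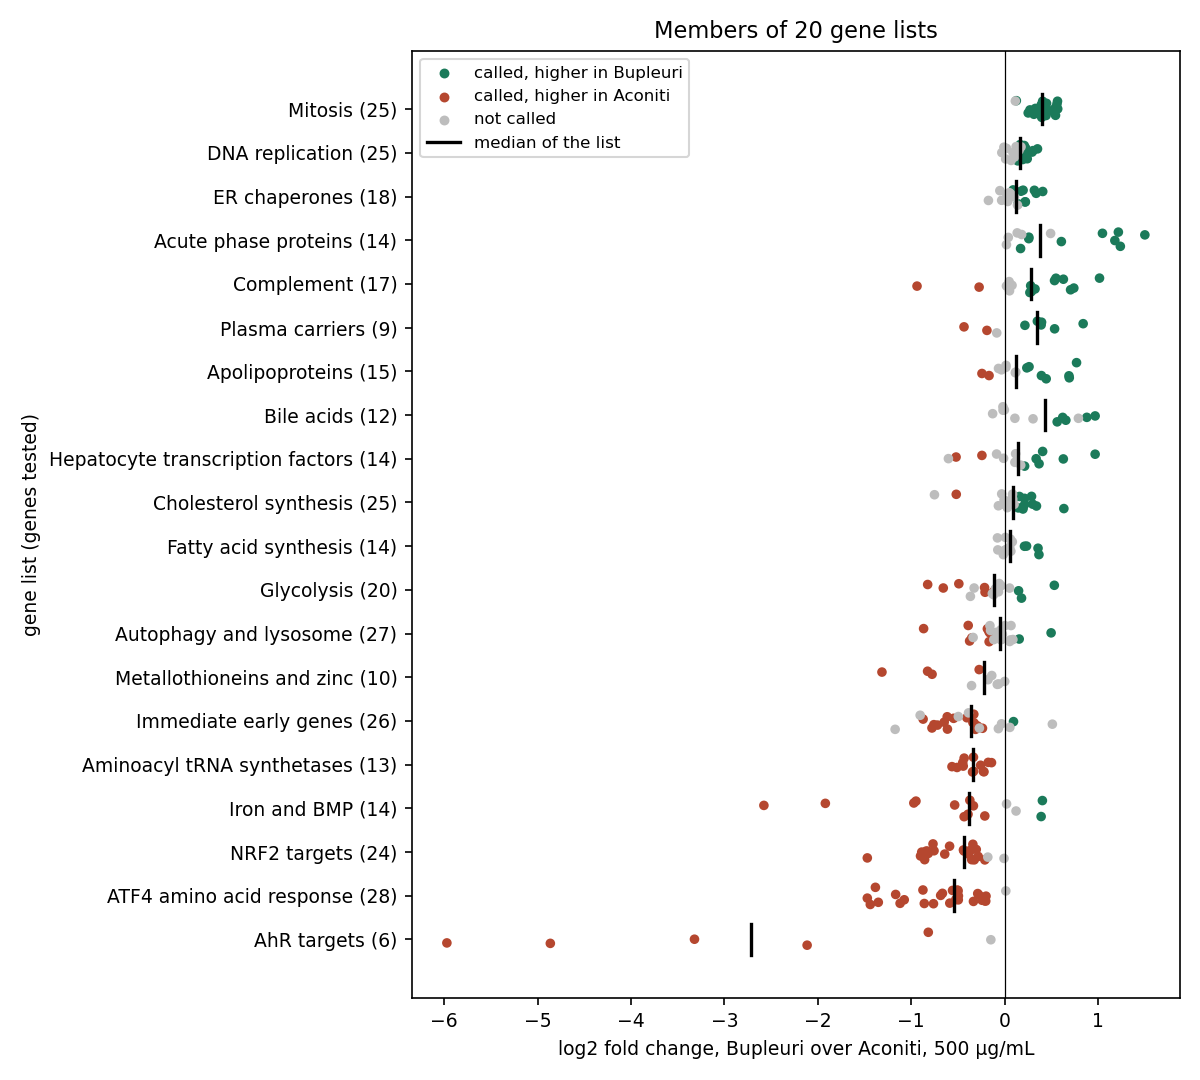
Log2 fold change of Bupleuri over Aconiti at 500 µg/mL for the tested members of 20 gene lists, 1 point a gene, with the number tested in brackets and a bar at the median. Green and red points were called higher in Bupleuri and in Aconiti, and the lists run from mitosis, with 24 of 25 members higher in Bupleuri, to AhR targets, with 5 of 6 higher in Aconiti.

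Immediate early genes, which growth factor and stress kinases switch on within minutes, were mostly higher in Aconiti. Of 26 tested 16 were higher in Aconiti and 1 in Bupleuri, with a median log2 difference of 0.36. EGR1 had 23.6, 24.9 and 23.7 CPM under Bupleuri and 43.02, 37.2 and 43.5 CPM under Aconiti, and DUSP6, the phosphatase that restrains ERK, had 86.7, 87.6 and 82.8 against 144, 139 and 141 CPM. Both were fully separated, at 1.72- and 1.65-fold. MYC and FOSL1 were 1.46- and 1.83-fold higher, while FOS, at 0.977, 0.786 and 1.14 against 2.14, 2.004 and 2.46 CPM, was not called (edgeR adjusted p = 0.136). The FOS libraries did not overlap, and its adjusted p was 5.3e-05 with no filter on low counts, 2e-04 within the title set and 0.00082 with only the libraries compared. TGF-beta and YAP targets split, with 6 of 14 higher in Aconiti and 5 in Bupleuri. CCN1 was 1.83-fold higher in Aconiti and AMOTL2 1.48-fold higher in Bupleuri, and THBS1 had 308, 294 and 287 against 277, 259 and 270.2 CPM (edgeR adjusted p = 0.046, and 0.0525 to 0.204 without Bupleuri replicate 1 or 2 or Aconiti replicate 1, 2 or 3). Of 13 WNT targets 4 were higher in Aconiti and 2 in Bupleuri, among them DKK1, a secreted WNT inhibitor, at 1.83-fold higher in Bupleuri. The chemokine CCL20 had 34.7, 34.8 and 32.3 against 64.3, 66.3 and 59.4 CPM and was the one of 12 NF-kB and cytokine genes that was higher in Aconiti, with 3 higher in Bupleuri. The share called in that list was 33.3%, beside 23.5% of all genes tested. SQSTM1, the p62 autophagy receptor that is also an NRF2 target, had 390.3, 379.5 and 404 against 699.5, 720 and 724 CPM and was 1.82-fold higher in Aconiti. Of 27 autophagy and lysosome genes 8 were higher in Aconiti (5 without Aconiti replicate 2) and 2 in Bupleuri, 37% called beside 23.5% of all genes tested.

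The ribosomal RNAs of mitochondria differed by a large share of all counts, as the plot of mitochondrial RNA by library and gene shows. MT-RNR1, the RNA of the small mitochondrial ribosomal subunit (chrM:648-1601, plus strand), had 12390, 12150 and 10960 CPM under Bupleuri and 47370, 47850 and 46850 CPM under Aconiti. MT-RNR2, that of the large subunit (chrM:1671-3229, plus strand), had 30950, 33600 and 30050 against 94790, 88900 and 91180 CPM. They were 4.002- and 2.905-fold higher in Aconiti (log2 2.00 ± 0.061 and 1.54 ± 0.066, edgeR adjusted p = 3.13e-30 and 2.11e-24). The messenger RNAs from the same genome split. Of 13, 6 were higher in Bupleuri, 4 in Aconiti and 3 were not called. MT-CO3 had 9689, 10030 and 10020 against 5495, 5434 and 6294 CPM and MT-ND4 9703, 11400 and 10090 against 5746, 5890 and 5877 CPM, subunits of cytochrome oxidase and of complex I that were 1.73- and 1.78-fold higher in Bupleuri. MT-CO2, MT-ATP6, MT-ND3 and MT-ND4L were also higher in Bupleuri. MT-ND5 had 3534, 4090 and 3206 against 5150, 4742 and 5481 CPM and was 1.42-fold higher in Aconiti, as were MT-ND2, MT-ND6 and MT-CYB by 1.39-, 1.55- and 1.26-fold. Several of these calls turned on 1 library. MT-ND6, the one read from the other strand, had an edgeR adjusted p of 0.0395, and of 0.0704 to 0.196 without Bupleuri replicate 1, 2 or 3 or Aconiti replicate 3. For MT-ND2 the adjusted p was 0.0159, and 0.0553 to 0.0838 without Bupleuri replicate 1 or 3 or Aconiti replicate 3. For MT-CYB it was 0.0241, and 0.0735 to 0.0909 without Bupleuri replicate 1 or 3 or Aconiti replicate 3. For MT-ATP6 it was 0.00746, and 0.109 without Bupleuri replicate 2. MT-ND1 (4610, 5859 and 4768 against 5871, 6831 and 8268 CPM), MT-CO1 (15630, 17440 and 15700 against 13460, 14030 and 14650 CPM) and MT-ATP8 were not called. With only the libraries compared these 3 were called, at edgeR adjusted p = 0.00518 for MT-ND1, 0.00683 for MT-CO1 and 0.00338 for MT-ATP8. They were also called with no filter on low counts (3.8e-21, 1.52e-05 and 9.51e-11), and MT-CO1 within the title set (0.0244), so the split of the 13 depends on these settings. Along the genome, the 6 higher in Bupleuri lie between MT-CO2 and MT-ND4, with MT-ATP8 among them. Nuclear genes for the respiratory chain scarcely differed, with 2 of 25 higher in Bupleuri (0 without Bupleuri replicate 1 or 3 or Aconiti replicate 1, and 1 without any other library of the 6) and 0 in Aconiti. Of 30 cytosolic ribosomal protein genes 1 was called, 7 without Bupleuri replicate 3 and 2 without Aconiti replicate 3. With all genes of mitochondrial DNA left out of the fit, 3768 genes were called.

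**Figure D4:**
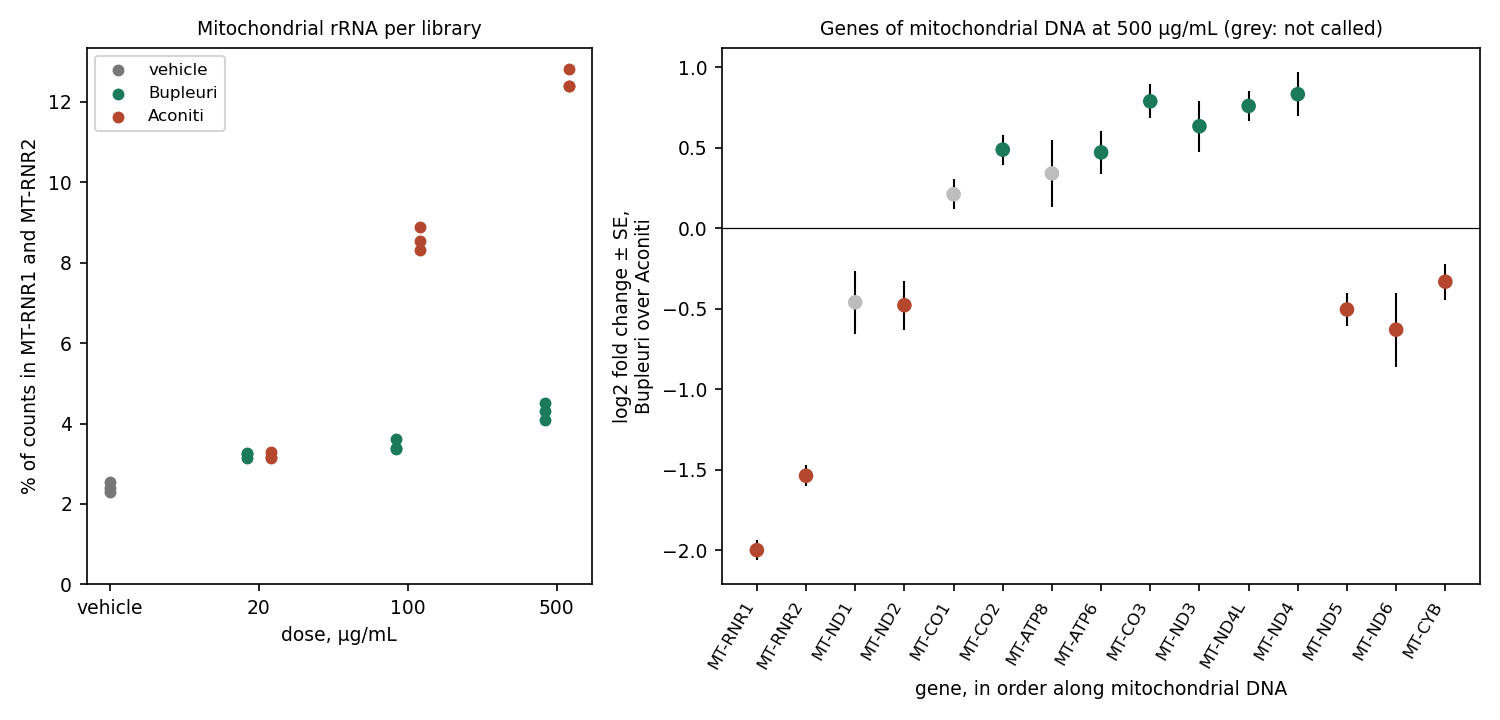
Left, the share of counts in MT-RNR1 and MT-RNR2 in each library by dose, 3 libraries a group, from 4.09 to 4.50% under Bupleuri 500 to 12.4 to 12.8% under Aconiti 500. Right, the log2 fold change of Bupleuri over Aconiti at 500 µg/mL with its standard error for each gene of mitochondrial DNA in genome order, with green and red for genes called higher in Bupleuri and in Aconiti and grey for genes that were not called.

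Of genes that code for no protein, the 3 with the largest difference towards Aconiti were both mitochondrial ribosomal RNAs and LINC00511, with 19.1, 19.6 and 18.6 against 35.6, 39.3 and 38.1 CPM. Towards Bupleuri they were ACSL3P1, a pseudogene (13.7, 10.2 and 10.03 against 4.74, 4.15 and 3.83 CPM), LINC02413 (9.52, 9.35 and 10.1 against 4.703, 5.44 and 4.28 CPM) and LINC00261 (87.4, 86.2 and 81.8 against 48.5, 48.4 and 51.2 CPM). Lack of overlap between the groups was a condition for naming these genes, so it is no separate result.

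The lower doses come from other libraries and give the same contrast anew. At 100 µg/mL 2316 genes (14.4%) were called between the extracts, 1001 higher in Bupleuri (6.22%) and 1315 higher in Aconiti (8.17%). At 20 µg/mL 82 genes (0.51%) were called, 26 higher in Bupleuri (0.162%) and 56 higher in Aconiti (0.348%), and 38, 52, 46 or 45 were called without Bupleuri replicate 1 or 2 or Aconiti replicate 1 or 3 of that dose. Of the 3777 genes called at 500 µg/mL, 1427 were called in the same direction at 100 µg/mL, which is 37.8% of the former and 61.6% of the latter, and 26 in the opposite direction. With 20 µg/mL 73 genes were shared in direction, 1.93% of those at 500 and 89% of those at 20 µg/mL, and 1 was opposite. CYP1A1 was separated at every dose, with means of 11.6 and 132 CPM at 20 µg/mL and 14.3 and 510.4 CPM at 100 µg/mL under Bupleuri and Aconiti. IGFBP1 had 43.1 and 48.1 CPM at 20 µg/mL (edgeR adjusted p = 0.715) and 57.05 and 84.9 CPM at 100 µg/mL. ASNS differed by log2 0.42 towards Aconiti at 100 µg/mL and was not called at 20 µg/mL (40.3 and 38.7 CPM). Mitosis genes, of which 24 differed at 500 µg/mL, had 4 members higher in Bupleuri and 1 in Aconiti at 100 µg/mL and 0 called at 20 µg/mL. NRF2 targets had 20 members higher in Aconiti at 100 µg/mL and 8 at 20 µg/mL, and ATF4 targets had 16 and 1, with 2 ATF4 targets higher in Bupleuri at 100 µg/mL.

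Whether the extracts differed in their effect of dose was tested as an interaction, the change from 20 to 500 µg/mL under Bupleuri minus that under Aconiti. It was called for 1636 genes (10.2%), 801 with the more positive change under Bupleuri (4.98%) and 835 with the more positive change under Aconiti (5.19%). Within extracts, 3024 genes (18.8%) changed between 20 and 500 µg/mL of Bupleuri, of which 1594 rose (9.9%) and 1430 fell (8.89%), and 5989 (37.2%) changed under Aconiti, 3083 rising (19.2%) and 2906 falling (18.1%). These contrasts share the 500 µg/mL libraries with the main comparison. AQP3 rose by log2 1.00 under Bupleuri and by 3.27 under Aconiti, and IGFBP1 rose by 2.18 and 4.15. FGA fell by 1.38 under Aconiti and was not called under Bupleuri (-0.05, edgeR adjusted p = 0.366). ACSM3 rose by 0.60 under Bupleuri and fell by 0.96 under Aconiti. S100P went the other way, falling by 0.81 under Bupleuri and rising by 0.83 under Aconiti. HAMP fell by 3.49 under Bupleuri and by 1.74 under Aconiti. MT1X and MT1G fell under both, MT1X by 2.11 and 2.05. Among the lists, the interaction was called for 24 of 25 mitosis genes, all with the more positive change under Bupleuri. Mitosis genes fell with dose under both extracts, by less under Bupleuri. Between 20 and 500 µg/mL 22 of the 25 fell under Bupleuri (median log2 -0.27) and 25 under Aconiti (median -0.73), and 0 rose. For ATF4 genes the interaction was called for 25 of 28, all with the more positive change under Aconiti. The plot of levels by dose shows these courses.

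**Figure D5:**
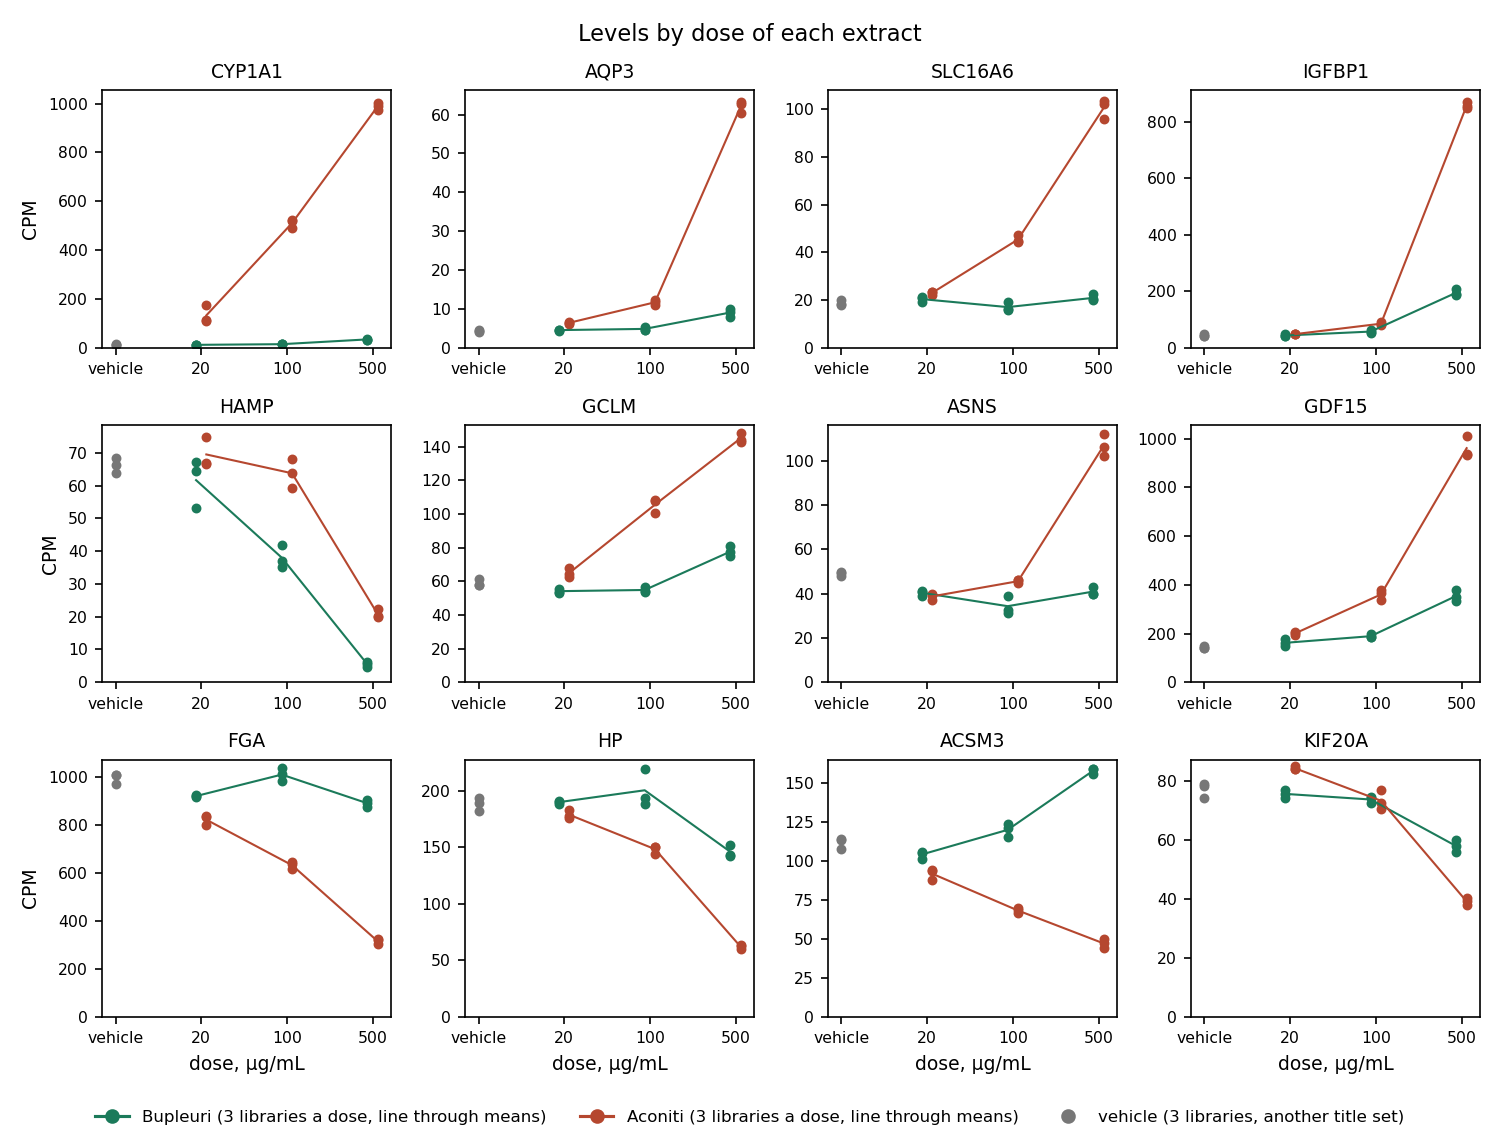
CPM of 12 genes in each library by dose of Bupleuri (green) and Aconiti (red), with lines through the group means and the vehicle libraries in grey at the left. CYP1A1 under Aconiti rises from a mean of 132 to 989 CPM between 20 and 500 µg/mL, while FGA under Aconiti falls from 820.2 to 314 CPM and under Bupleuri stands at 918, 1008 and 888 CPM at 20, 100 and 500 µg/mL.

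Against vehicle 5739 genes (35.7%) were called under Bupleuri 500, 3064 higher (19%) and 2675 lower (16.6%), and 7629 (47.4%) under Aconiti 500, 3944 higher (24.5%) and 3685 lower (22.9%). Both contrasts use the same vehicle libraries, and the vehicle stands in another title set, so set and treatment cannot be told apart. CYP1A1 had 12.99, 10.99 and 13.9 CPM in the vehicle libraries and ACSM3 114, 108 and 114 CPM, between the 2 extracts for ACSM3 and below both for CYP1A1. FGA, at 1005, 969 and 1008 CPM with vehicle, was nearer to Bupleuri than to Aconiti.

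Markers were read for the cell types the cultures could hold. Of 8 hepatocyte markers all were detected and 6 were higher in Bupleuri, with a summed level of 39130 to 42190 CPM under Bupleuri and 35340 to 36280 CPM under Aconiti. Fibroblast markers were at or near 0 apart from PDGFRB and COL1A1, both called higher in Bupleuri, with a sum of 14.9 to 15.9 against 12.02 to 13.4 CPM. COL1A2, COL3A1, DCN and LUM were below the filter, and for PDGFRB the edgeR adjusted p was 0.0111, and 0.0507 to 0.0741 without Bupleuri replicate 3 or Aconiti replicate 1 or 2. The part of these markers in the other results was not tested. PTPRC, CD3E and MS4A1, which define leukocytes, and KDR and TEK of endothelium were below the filter too. The other endothelial markers, CDH5, PECAM1 and VWF, were tested and not called, with log2 fold changes of Bupleuri over Aconiti of -1.28 to 0.48. Together they summed to 2.65 to 3.45 CPM under Bupleuri and 3.01 to 3.15 CPM under Aconiti. CDH5 was called without Bupleuri replicate 3 (log2 -1.98, edgeR adjusted p = 0.0398). CD68, a lysosomal protein that marks macrophages, was 1.58-fold higher in Aconiti. LYZ and CD14 were not called (edgeR adjusted p = 0.275 and 0.409). CD68, LYZ and CD14 together summed to 2127 to 2186 CPM under Bupleuri and 1889 to 2129 CPM under Aconiti. That sum holds nothing from PTPRC, CD3E or MS4A1, so it is no measure of leukocytes in the cultures. KRT19, EPCAM and SOX9 of bile duct cells were expressed in both groups and not called, with log2 differences of -0.01 to 0.06.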

How the data were processed

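The deposited values are expected counts, estimated per gene by the authors with RSEM 1.3.3 after STAR 2.7.3a, Trim Galore 0.6.5 and FastQC 0.11.9 on GRCh38, per the submitters' processing notes. Per the labels, stranded libraries were read as paired ends of 100 bases. The annotation release and the strand setting of counting are not given in the sources used here. Another 207 columns of the table match none of the samples and were not used. Counts were rounded and tested in R 4.3.3 with edgeR 4.0.16 (TMM scaling, filterByExpr, quasi-likelihood test) on 57 replicated libraries in 19 groups, with 38 residual degrees of freedom and Benjamini-Hochberg adjustment over 16093 genes. The code was tested on simulated data. Alternatives covered scaling, filters, DESeq2 1.42.0, GC content, the replicate number, the libraries fitted and each library left out. Coordinates are from GENCODE 29 and promoters from RefSeq. Named genes were the 15 largest called differences each way among protein-coding genes with a mean CPM of 5 or more and no overlap, 5 each way for the interaction, 3 each way among noncoding genes, a panel of 69 genes (a few items are not reported here), and members of the lists taken by smallest p or because they were not called. Members and the 51 lists were chosen with earlier results of these data known. Same-numbered libraries of the 2 extracts deviated together with r = 0.0105, 0.00425 and 0.0637, so they were not treated as pairs.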

Additional observations from a re-analysis of the deposited data

Results flagged for a closer look

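The effect of dose, 500 against 20 µg/mL, differed between the extracts for 1636 genes by the edgeR interaction test, and the genes below were flagged because that difference was itself tested. Towards Bupleuri the interaction was 1.56 on the log2 scale for ACSM3, 1.47 for ACSM2B, 1.42 for KCNJ10, 1.34 for FGA and 1.33 for MMP11. Towards Aconiti it was -2.27 for AQP3, -2.09 for SLC16A6, -1.98 for IGFBP1, -1.74 for HAMP and -1.69 for SOS1. These contrasts use the same 500 µg/mL libraries as the direct comparison.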

How the results depend on the processing

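The 3777 calls between the extracts at 500 µg/mL became 3893 with a replicate block, 3291 with no filter on low counts, 3225 with only the compared libraries and 3510 with DESeq2, and 3069 to 3293 with 1 library left out. Over the same omissions 1392 to 1516 genes were higher in Bupleuri and 1672 to 1782 in Aconiti. The interaction gave 1338 to 1534 calls, the 100 µg/mL contrast 1689 to 2112 and the 20 µg/mL contrast 38 to 56. The dose effects gave 2495 to 2668 calls for Bupleuri and 5218 to 5508 for Aconiti, and the contrasts with vehicle 4685 to 5390 and 6657 to 7280. With only the libraries compared, the 2316 calls at 100 µg/mL became 1178. The 82 calls at 20 µg/mL became 189 with no filter, 127 with GC content corrected, 167 with that and the replicate block, 47 within the title set and 38 with only the libraries compared, and the cause was not tested. The replicate number as a block moved no count of calls by over 1.5 times and kept 3762 of the 3777. SAA4 was called with the block (log2 0.1813, edgeR adjusted p = 0.0428). With the block and GC content corrected together, SAA4 (0.0319), SERPINA1 (0.0284), TIPARP (0.0399), MCM3 (0.0418), FOXO1 (0.0466) and HMGCS1 (0.0457) were called. Uncalled log2 differences near 0 changed sign. That of MT1F was 0.0114 with no filter, 0.0002 with the replicate block, 0.0019 within the title set and 0.0011 with only the libraries compared, and PRDX1 had 0.004 with no filter. That of PECAM1 was -0.0018 with median-ratio size factors and with a mean CPM of 1 or more, and -0.0017 with DESeq2. With 1 library left out, such differences ran from -0.0130 to 0.0566 for C3, -0.0234 to 0.0453 for CP, -0.0076 to 0.0958 for EPCAM, -0.0245 to 0.0493 for FASN, -0.0039 to 0.0616 for ITIH3, -0.0274 to 0.0859 for KRT19, -0.0683 to 0.0628 for MT1F, -0.0498 to 0.0225 for PRDX1, -0.0685 to 0.0645 for PECAM1, -0.0257 to 0.0317 for PSPH, -0.0054 to 0.0301 for SCD and -0.0495 to 0.0079 for SOX9. Precision is limited by 3 libraries a group, of 23124815 to 28530173 counts at 500 µg/mL.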

Other observations

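Another 3 genes below the level used for naming, chosen after their values were seen, were also far apart at 500 µg/mL. LRRC25, a membrane protein with leucine-rich repeats, had 0.6798, 0.497 and 0.569 CPM under Bupleuri and 4.62, 4.67 and 4.69 CPM under Aconiti. NPAS1, a transcription factor of the bHLH-PAS family to which AhR belongs, had 1.15, 0.993 and 1.103 against 5.17, 6.63 and 8.02 CPM. LCN15, a lipocalin, had 1.06, 0.621 and 0.925 against 5.29, 5.25 and 5.15 CPM. No library of one group overlapped the other in any of them, and all were called higher in Aconiti.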
